A study of Mus musculus with 14 samples.

Results

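Mitochondrial ribosomal protein genes were examined in left ventricles of UtyGT and wild-type (WT) male mice. Members were all protein-coding genes of the count table whose name begins with Mrpl or Mrps followed by a digit. This rule, which uses names and no measured value, gave 78 genes (49 Mrpl and 29 Mrps) out of 47642 genes with counts. The UtyGT mice carry a gene trap in an early intron of Uty, a Y-linked relative of the histone demethylase gene Kdm6a, on a chromosome Y that comes from 129P2/OlaHsd-derived ES cells and was moved to C57BL/6J by repeated backcrossing. The WT controls carry a 129P2/OlaHsd chromosome Y without the trap that was backcrossed to C57BL/6J over as many generations, so that both groups share the strain background and the origin of chromosome Y. All mice were adult males, 40 days old. The line derives from a single trapped ES cell line, and the trap is present in all cells of the mouse, not only in the heart. Each of 14 QuantSeq 3′ libraries came from the left ventricle of a different animal, 7 per genotype.

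Mitochondrial ribosomes translate the few proteins that mitochondrial DNA encodes, which are core subunits of the respiratory chain and of ATP synthase. Their RNAs come from mitochondrial DNA, but their proteins come from nuclear genes, are made in the cytosol and are imported. A large subunit holds the peptidyl transferase center and a small subunit decodes the mRNA. Some of the proteins have a counterpart in bacterial ribosomes, and others were gained by mitochondria. The heart is rich in mitochondria, and several human disorders of mitochondrial translation affect it.

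Promoter sequences are shown because Mrps18a, called lower, holds the same letters there as Mrpl18, Mrpl51, Mrps22 and Mrps33, called higher. Windows from 250 bases before to 50 bases after the transcript start were taken from RefSeq on GRCm38.p6, and 69 of 78 members matched, with 75 windows. The letters CCGGAAG, the core that ETS family factors recognize, were searched on both strands. The family includes GABP, also known as nuclear respiratory factor 2, a regulator of nuclear genes for mitochondrial proteins. These letters were found in 26 of 75 windows of members (34.7%) and in 8.86% of 32851 windows of all genes. The letters GCGCATG of an NRF1 site were found in 8 windows of members (10.7%, against 3.91% of all windows), and AAGATGG of a YY1 site in 13 (17.3%, against 6.34%). None of the 3 motifs overlapped another in the windows printed here. Of the 8 members with a difference between genotypes described below, 6 had a window, and 5 of these (Mrpl18, Mrpl51, Mrps18a, Mrps22 and Mrps33) held CCGGAAG or its reverse complement. Mrpl4, also called lower, and Mrpl13 had no window, so Mrps18a is the only member called lower that could be read. A match is a description of letters, and binding was not measured. The sequences of Mrpl51 (chr6:125191950-125192249, plus strand) and Mrpl18 (chr17:12916042-12916341, minus strand), both higher in UtyGT, and of Mrps18a (chr17:46110754-46111053, plus strand), lower in UtyGT, are given 5′ to 3′ on the strand of the gene, with motif letters in capitals. CCGGAAG spans bases 161 to 167 in Mrpl51, 11 to 17 in Mrpl18 and 225 to 231 in Mrps18a, and the other capitals of Mrps18a are AAGATGG at bases 262 to 268.
Mrpl51: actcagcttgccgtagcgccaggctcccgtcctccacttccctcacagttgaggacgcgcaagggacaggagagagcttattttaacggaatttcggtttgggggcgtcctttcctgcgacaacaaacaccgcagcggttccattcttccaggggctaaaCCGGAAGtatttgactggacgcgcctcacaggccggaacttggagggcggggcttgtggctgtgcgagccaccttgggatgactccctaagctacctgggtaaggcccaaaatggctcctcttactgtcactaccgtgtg
Mrpl18: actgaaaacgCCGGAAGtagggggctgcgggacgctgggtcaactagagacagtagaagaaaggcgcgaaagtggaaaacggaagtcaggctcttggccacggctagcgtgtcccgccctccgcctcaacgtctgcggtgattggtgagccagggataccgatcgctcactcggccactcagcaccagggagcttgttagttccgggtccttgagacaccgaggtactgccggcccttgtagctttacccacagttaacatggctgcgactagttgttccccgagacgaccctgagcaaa
Mrps18a: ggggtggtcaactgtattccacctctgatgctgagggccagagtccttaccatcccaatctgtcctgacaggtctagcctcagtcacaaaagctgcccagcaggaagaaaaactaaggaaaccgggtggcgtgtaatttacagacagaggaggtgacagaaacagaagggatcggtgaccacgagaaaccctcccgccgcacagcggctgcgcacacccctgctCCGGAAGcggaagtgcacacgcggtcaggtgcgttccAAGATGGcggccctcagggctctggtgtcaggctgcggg

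Reads assigned to genes totalled 6322161 to 10268706 per library. Levels are CPM, the counts of a gene scaled to a common library size with TMM factors, given as mean ± SD with n = 7 per genotype. One read marks the 3′ end of 1 transcript in these libraries, so CPM were not divided by length. Fold changes are log2 of UtyGT over WT ± SE, and a gene is said to be called where the adjusted p of the edgeR quasi-likelihood test was below 0.05 over 11563 tested genes. The trapped gene itself was checked through its counts. They were 47 to 75 per library in WT against 1 to 6 in UtyGT, and no library went against its label. All 8 cardiomyocyte markers were tested and none was at 0 counts. Libraries WT 4 and UtyGT 6 lay apart from the others and next to each other on the first principal component of all genes (scores of -59.1 and -54.7, against -26.2 to 45.4 in the other 12 libraries), and values without them are given where they matter. The ventricle was sequenced as bulk tissue, in which fewer cells of a type and less RNA per cell cannot be told apart.

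Members took 0.546% to 0.694% of the reads assigned to genes. Of 78 members, 75 had enough counts to be tested. Their mean levels ran from 1.69 to 448 CPM, with a median of 59.3 CPM against 15.1 CPM over all tested genes, and 17 members exceeded 100 CPM while 4 stayed below 10 CPM. The 5 most abundant members made up 24.6% of the summed level of all 78. Members varied less between animals than genes at large. The median coefficient of variation was 17.2% in WT and 19.6% in UtyGT, against 24.01% and 24.83% over all tested genes, which have lower counts. The summed level of members ran from 5055 to 6787 CPM in WT (mean 5979 ± 624) and from 5665 to 7495 CPM in UtyGT (mean 6071 ± 646), and the genotypes overlapped. WT 7 and WT 6 had the lowest sums of all libraries, at 5055 and 5226 CPM.

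Most mitochondrial ribosomal protein genes were measured at close levels in both genotypes. The median log2 fold change of the 75 tested members was 0.02 (quartiles -0.15 and 0.22), against 0.01 (-0.23 and 0.25) over all tested genes, and 42 members lay above 0 and 33 below. Differences were smaller than 1.2-fold for 50 members, and for 45 members the 95% interval stayed within 1.5-fold in either direction. Of the 75, 6, or 8.0%, were called higher (against 4.70% of all tested genes) and 2, or 2.67%, lower (against 3.34%), so that 10.7% were called in either direction where 8.03% of all genes were. The share called higher lay above that of all genes and the share called lower below it, and these differences were not tested. The members called higher were Mrpl51, Mrpl18, Mrpl20, Mrpl13, Mrps33 and Mrps22, and those called lower were Mrpl4 and Mrps18a. At an unadjusted p below 0.05 the counts were 12 higher (16.0%, against 12.5%) and 5 lower (6.67%, against 12.3%). Single libraries moved the counts of calls. The number called higher was 3 without WT 2, UtyGT 2, UtyGT 3 or UtyGT 4, and 2, namely Mrpl51 and Mrpl18, without WT 3, WT 4, WT 5, UtyGT 1 or UtyGT 7. The number called lower was 1 without WT 2 or UtyGT 5, and 0 without WT 3, WT 4, WT 5, UtyGT 1, UtyGT 2, UtyGT 3, UtyGT 4 or UtyGT 7. In the fits with 3 or 2 members called higher, 2.36% to 3.21% of all genes were called higher. Of all genes 2.10% and 3.18% were called lower without WT 2 and UtyGT 5, and 1.25% to 1.94% in the fits with 0 members. In each of these fits the shares of all genes lay below those of the full set (4.70% and 3.34%). Without UtyGT 6 there were 9 higher and 8 lower, of all genes 7.87% and 11.4%, and without both WT 4 and UtyGT 6 there were 8 and 4, of all genes 6.88% and 7.21%.

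**Figure D1:**
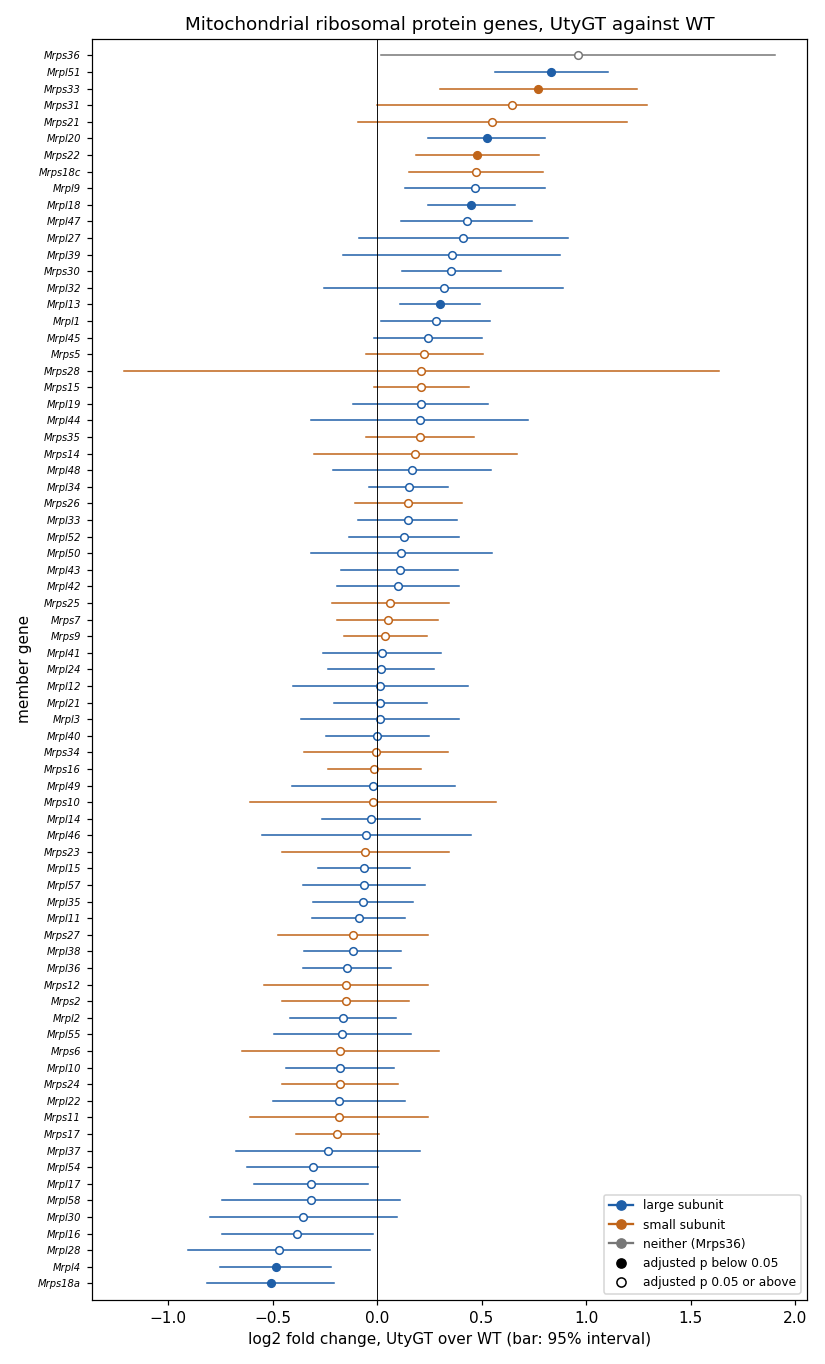
Log2 fold change of UtyGT over WT (x axis) for each of the 75 tested members (y axis, ordered by fold change), with 95% intervals from the edgeR fit as bars, large subunit members in blue, small subunit members in orange, and filled points for adjusted p below 0.05. The points run from -0.51 (Mrps18a) to 0.96 (Mrps36) around a median of 0.02, and 8 are filled.

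Mrpl51 had the clearest difference among members of the large subunit. It encodes a protein that bacterial ribosomes lack (ENSMUSG00000030335, GRCm38 chromosome 6, 125191801 to 125196269, plus strand). The lowest, median and highest WT libraries had 96.2, 111.6 and 136.21 CPM, and those of UtyGT had 135.96, 219.7 and 228.6 CPM. All UtyGT libraries except UtyGT 6 were above all WT libraries. The mean of 204 ± 32.3 CPM in UtyGT was 178% of the WT mean of 114 ± 16.4 CPM (log2 fold change 0.83 ± 0.13, edgeR adjusted p = 0.00253). Mrpl51 was called under all 26 alternatives tried, with adjusted p from 2.28e-07 to 0.00844. RefSeq places the start of the transcript behind the printed window downstream of the gene start given in the files, so that this window, with its CCGGAAG, lies within the annotated gene. The window of Mrpl18 lies within its annotated gene as well.

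Mrpl18, Mrpl20 and Mrpl13, large subunit members with bacterial counterparts, were also higher in UtyGT. Mrpl18 (chromosome 17, 12911349 to 12916345, minus strand) is the counterpart of bacterial L18, a protein of the central protuberance. Its level was 107 to 155 CPM in WT (median 126) and 158 to 186 CPM in UtyGT (median 181), with no overlap between genotypes. The mean rose from 127 ± 14.5 to 174 ± 12.8 CPM (log2 fold change 0.45 ± 0.10, edgeR adjusted p = 0.0125). The gene shares 645 nt with Tcp1 on the opposite strand, and reads there cannot be told apart if they were counted without strand. The call was lost when GC content near the 3′ end was corrected for (adjusted p = 0.0625, range over alternatives 0.000119 to 0.0625). Mrpl20 (chromosome 4, 155802878 to 155809975, plus strand) is the counterpart of bacterial L20, which in bacteria acts early in assembly of the large subunit. It ran from 49.6 to 82.6 CPM in WT (median 72.2) and from 71.7 to 120 CPM in UtyGT (median 111), where UtyGT 6 was the only library inside the WT range. The mean rose from 71.1 ± 10.7 to 102 ± 17.5 CPM (0.52 ± 0.13, edgeR adjusted p = 0.0272). The adjusted p was 0.0508 to 0.0603 without WT 3, WT 4, WT 5, UtyGT 1, UtyGT 4 or UtyGT 7, where the call was lost. Mrpl13 (chromosome 15, 55534094 to 55557748, minus strand), the counterpart of bacterial L13, showed a smaller difference with little spread. WT libraries ran from 70.3 to 90.4 CPM and UtyGT libraries from 93.8 to 109 CPM, again with no overlap. The mean rose from 81.2 ± 6.96 to 100.05 ± 5.50 CPM (0.30 ± 0.09, edgeR adjusted p = 0.0490), just inside the threshold, and the call held under 6 of 26 alternatives (range 0.00323 to 0.619). Its log2 fold change was 0.12 after GC correction and 0.18 after 3′ GC correction. With any 1 library left out, its adjusted p was 0.0558 to 0.0975. Mrpl18 and Mrpl13 were the only members without overlap between genotypes with UtyGT higher (2 of 75, 2.67%, against 1.46% of all tested genes), and none of the members had all UtyGT libraries below all WT libraries (against 0.675%).

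Mrpl4 and Mrps18a, also of the large subunit, were lower in UtyGT. Mrpl4 (chromosome 9, 21002738 to 21008839, plus strand) is the counterpart of bacterial L4, which in bacteria lines the tunnel through which the new protein leaves. It ran from 45.7 to 69.5 CPM in WT (median 53.1) and from 32.4 to 49.2 CPM in UtyGT (median 36.3), and 6 UtyGT libraries lay below all WT libraries. The mean fell from 54.4 ± 8.37 to 38.9 ± 6.06 CPM (log2 fold change -0.49 ± 0.13, edgeR adjusted p = 0.0282). Its call held under 16 of 26 alternatives (range 0.00145 to 0.146) and was lost under both GC corrections (the log2 fold change being -0.25 under that for the 3′ end) and without WT 3, WT 4, WT 5, UtyGT 1, UtyGT 2, UtyGT 3, UtyGT 4 or UtyGT 7. Mrps18a (chromosome 17, 46110986 to 46128910, plus strand) is related to bacterial S18 but sits in the large subunit of mammalian mitochondrial ribosomes, despite its name. It ran from 39.7 to 65.0 CPM in WT (median 60.1) and from 34.03 to 54.2 CPM in UtyGT (median 35.9), and 5 UtyGT libraries lay below all WT libraries. The mean fell from 55.2 ± 10.6 to 38.7 ± 7.28 CPM (-0.51 ± 0.14, edgeR adjusted p = 0.0386). In both genes WT 4 and UtyGT 6 were the highest libraries of their genotypes. The call of Mrps18a held under 13 of 26 alternatives (range 0.00138 to 0.123) and was lost under the GC and length corrections (-0.27 under that for GC content of the 3′ end) and without WT 2, WT 3, WT 4, WT 5, UtyGT 1, UtyGT 2, UtyGT 3, UtyGT 4, UtyGT 5 or UtyGT 7.

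In the small subunit, Mrps33 and Mrps22 were higher in UtyGT. Neither protein has a bacterial counterpart. Mrps33 (chromosome 6, 39801804 to 39810988, minus strand) was scarce, at 4.71 to 10.3 CPM in WT (median 6.65) and 7.05 to 17.3 CPM in UtyGT (median 12.5), with 5 UtyGT libraries above all WT libraries. The mean rose from 7.21 ± 2.26 to 12.3 ± 3.49 CPM (log2 fold change 0.77 ± 0.22, edgeR adjusted p = 0.0424, called under 13 of 26 alternatives, range 0.00832 to 0.1003). Mrps22 (chromosome 9, 98588730 to 98601660, minus strand) is known in humans from an inherited disorder of mitochondrial translation that can bring hypertrophic cardiomyopathy. Its level was 11.9 to 19.7 CPM in WT (median 17.7) and 19.6 to 26.7 CPM in UtyGT (median 21.4), with 6 UtyGT libraries above all WT libraries. The mean rose from 16.2 ± 3.17 to 22.6 ± 2.92 CPM (0.48 ± 0.14, edgeR adjusted p = 0.0432, called under 10 of 26 alternatives, range 0.0101 to 0.109). Most single libraries decided these calls. That of Mrps33 was lost without WT 2, WT 3, WT 4, WT 5, WT 6, UtyGT 1, UtyGT 2, UtyGT 3 or UtyGT 7, and that of Mrps22 without any library but WT 6 and UtyGT 6.

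**Figure D2:**
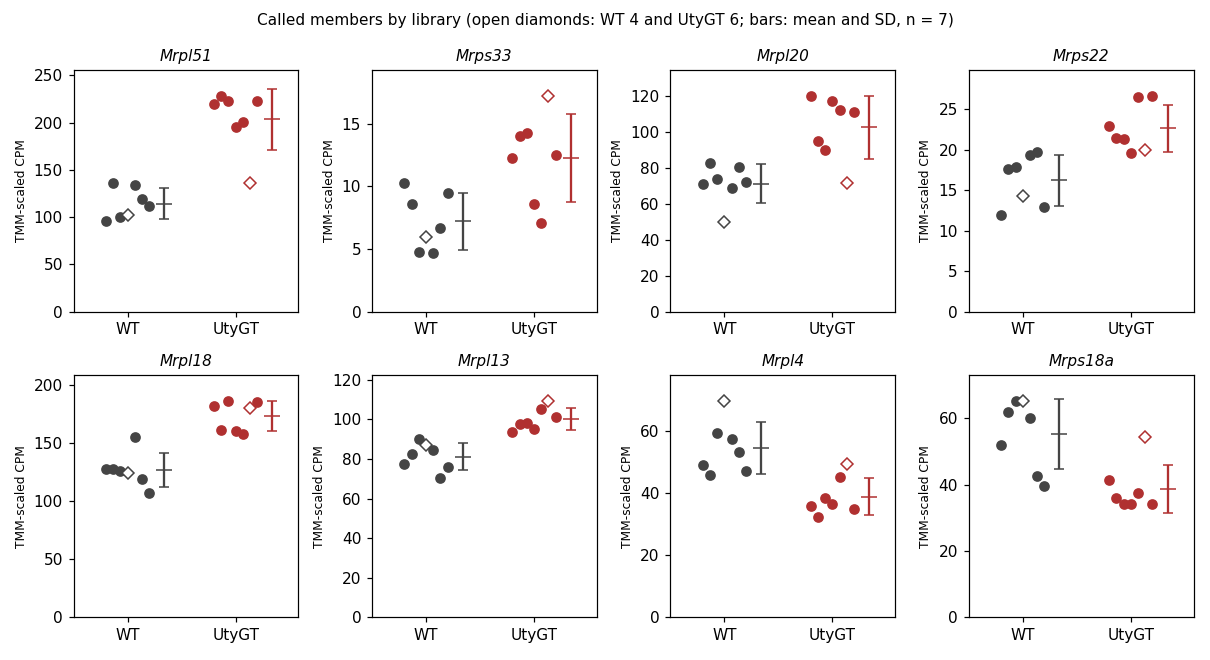
TMM-scaled CPM (y axes, each from 0) of the 8 called members in the 7 WT (gray) and 7 UtyGT (red) libraries, with mean and SD beside the points and open diamonds for WT 4 and UtyGT 6. Mrpl18 and Mrpl13 do not overlap between genotypes, and UtyGT 6 is the only UtyGT library inside the WT range for Mrpl51 (135.96 CPM) and Mrpl20 (71.7 CPM).

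A further 4 members had an adjusted p between 0.05 and 0.1 and were not called. Mrps30, which sits in the large subunit despite its name, averaged 44.3 ± 7.26 CPM in WT against 56.7 ± 3.37 CPM in UtyGT (log2 fold change 0.35 ± 0.11, edgeR adjusted p = 0.0616). All others of the 4 also had values above 0, namely Mrps18c (0.47 ± 0.15, 0.0644), Mrpl9 (0.47 ± 0.16, 0.0781) and Mrpl47 (0.43 ± 0.15, 0.0866), and all 4 were named after their values were seen. Under alternatives each of them was called at least once. Mrps30 was called by DESeq2 (adjusted p = 0.0247), with library totals alone (0.0181), with surrogate variables (0.00470), without UtyGT 6 (0.0426) and without WT 4 and UtyGT 6 (0.0380). Mrps18c was called by DESeq2 (0.0420), with surrogate variables (0.00940), without UtyGT 6 (0.00507) and without WT 4 and UtyGT 6 (0.00616). Mrpl9 was called with surrogate variables (0.0228), without UtyGT 5 (0.0443), without UtyGT 6 (0.0294) and without WT 4 and UtyGT 6 (0.0470), and Mrpl47 only with surrogate variables (0.0244). After GC correction the log2 fold change of Mrps30 was 0.17, and after that for the 3′ end Mrpl47 was at 0.28. Mrpl47 overlaps the abundant Ndufb5 on the opposite strand. Mammals have 3 relatives of bacterial S18 in the mitochondrial ribosome. Of these, Mrps18a fell as described, Mrps18c, of the small subunit, was measured at 27.2 ± 4.30 and 37.8 ± 7.63 CPM, and Mrps18b had too few counts for a test.

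The most abundant members did not differ between genotypes beyond their spread. Mrpl12, the counterpart of the bacterial stalk protein that recruits translation factors, ran from 322 to 567 CPM in WT and from 318 to 799 CPM in UtyGT (means 446 ± 109 and 451 ± 162, log2 fold change 0.02 ± 0.20, 95% interval -0.40 to 0.44, edgeR adjusted p = 0.972). Mrps23 of the small subunit averaged 288 ± 72.5 CPM in WT against 277 ± 88.5 CPM in UtyGT (-0.06 ± 0.19, adjusted p = 0.885). Mrpl37, a large subunit protein specific to mitochondria, was measured at 305 ± 86.1 and 259 ± 91.0 CPM (-0.24 ± 0.21, adjusted p = 0.515). The fold change of Mrpl37 was -0.44 without UtyGT 6 (adjusted p = 0.0707), -0.15 without WT 4, -0.12 with surrogate variables and -0.09 after 3′ GC correction. In all 3 genes UtyGT 6 was the highest UtyGT library, at 799, 468 and 451 CPM. Mrpl12 had the highest mean, followed by Mrps23 and Mrpl37, and the ranges of all 3 overlapped. The member with the smallest standard error, picked after its values were seen, was Mrpl34, the counterpart of bacterial L34, with 116 to 131 CPM in WT and 117 to 154 CPM in UtyGT (124 ± 4.79 and 137 ± 12.04, 0.15 ± 0.09, interval -0.04 to 0.34, adjusted p = 0.307). It was at 0.36 after GC correction (0.0503) and at 0.43 and called after 3′ GC correction (0.0418).

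A further 3 members were named for their roles after values were seen, and none was called under any alternative. Mrpl45, through which the ribosome contacts the inner membrane, averaged 77.5 ± 6.27 CPM in WT against 91.8 ± 18.1 CPM in UtyGT (log2 fold change 0.24 ± 0.12, interval -0.01 to 0.50, edgeR adjusted p = 0.226), with 0.16 without UtyGT 6. Mrpl3 and Mrpl44 are known in humans, like Mrps22, from disorders of mitochondrial translation with cardiomyopathy. Mrpl3 was measured at 59.0 ± 12.8 and 59.6 ± 15.0 CPM (0.01 ± 0.18, interval -0.37 to 0.39) and Mrpl44 at 56.5 ± 18.4 and 65.1 ± 20.5 CPM (0.20 ± 0.25, interval -0.31 to 0.72). Both were lowest in UtyGT 6 among UtyGT libraries, at 30.7 and 22.2 CPM. With 1 library left out Mrpl44 ran from 0.0950 (without WT 4) to 0.34 (without UtyGT 6).

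The 3 scarcest tested members were Mrps36, Mrps28 and Mrps10. Mrps36 averaged 1.14 ± 0.773 CPM in WT against 2.24 ± 1.202 CPM in UtyGT, the largest fold change of any member but not called (0.96 ± 0.45, interval 0.02 to 1.90, edgeR adjusted p = 0.190). It matches the rule by name only, since its product is a component of the 2-oxoglutarate dehydrogenase complex and not of the ribosome, and it has a processed pseudogene, Mrps36-ps2, with 209 counts in all to which its reads may be lost. Mrps28 was the most variable member, with 2.3, 3.7, 1.4, 1.8, 7.2, 20.6 and 16.5 CPM in WT 1 to WT 7 and 6.7, 23.4, 15.7, 4.0, 1.3, 0.9 and 10.2 CPM in UtyGT 1 to UtyGT 7. High and low libraries occurred in both genotypes (0.21 ± 0.67, interval -1.21 to 1.63, adjusted p = 0.878). Mrps10, the counterpart of bacterial S10, had 9.58 ± 2.45 and 9.49 ± 3.50 CPM (-0.02 ± 0.28, adjusted p = 0.978). The 3 members not tested had summed counts over all 14 libraries of 103 (Mrpl23), 47 (Mrpl53) and 33 (Mrps18b). Mrpl53 had 0 counts in 5 WT and 2 UtyGT libraries and 9 to 14 counts in WT 7, UtyGT 2, UtyGT 3 and UtyGT 7.

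Calls were spread over both subunits. Of all tested genes 4.70% were called higher and 3.34% lower by edgeR. Of 49 tested members of the large subunit 4 were called higher and 2 lower (median log2 fold change 0.02), and of 25 of the small subunit 2 were called higher and 0 lower by edgeR (median 0.05), with 3 and 0 at an unadjusted p below 0.05, 3 and 0 by DESeq2 and 2 and 0 by voom. Summed levels of the large subunit ran from 3621 to 4872 CPM in WT and from 4072 to 5320 CPM in UtyGT, and those of the small subunit from 1429 to 1914 and from 1545 to 2173 CPM, so that both overlapped between genotypes. Among 45 members with a bacterial counterpart 3 were called higher and 1 lower (median 0.01), and among 29 specific to mitochondria 3 and 1 (median 0.10). The 1 called lower in the latter class was Mrps18a, which was counted there although it is related to bacterial S18. The calls of these classes thus depend on where Mrps18a is placed. The differences between these classes were not tested.

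Members did not all vary together across animals, and some ran in opposite directions. Of 75 tested members, 23 had their highest level in WT 4 among WT libraries and also in UtyGT 6 among UtyGT libraries (30.7%, against 16.4% of all tested genes), and 11 had their lowest level in both (14.7%, against 17.2%). Both shares describe libraries that were chosen because they stood apart. Named after their values were seen, Mrps6 (the counterpart of bacterial S6) and Mrpl46 were high there. Mrps6 had 326 CPM in WT 4, against 143 to 312 CPM in other WT libraries, and 385 CPM in UtyGT 6, against 143 to 222 CPM in other UtyGT libraries. Mrpl46 had 88.0 CPM in WT 4, against 36.6 to 75.4 CPM, and 116 CPM in UtyGT 6, against 42.2 to 59.3 CPM. Mrps21 (the counterpart of bacterial S21) and Mrpl39 went the other way. Mrps21 had 19.5 CPM in WT 4, against 27.7 to 62.3 CPM, and 15.6 CPM in UtyGT 6, against 36.5 to 84.2 CPM. Mrpl39 had 15.2 CPM in WT 4, against 21.9 to 42.1 CPM, and 14.6 CPM in UtyGT 6, against 33.4 to 53.6 CPM. The 4 genes were not called between genotypes (log2 fold changes of -0.18 for Mrps6, -0.05 for Mrpl46, 0.55 for Mrps21 and 0.36 for Mrpl39), except Mrps21 without UtyGT 6 (edgeR adjusted p = 0.0482). Without UtyGT 6 Mrps6 was at -0.41 (0.106) and without WT 4 at -0.09, and Mrpl39 was at 0.23 without WT 4. Among the 23 members high in both libraries 19 had a fold change below 0 and 2 were called lower, against 80.9% and 8.31% of the 1902 genes high in both. Among the 11 members low in both 9 had one above 0 and 1 was called higher, against 78.3% and 5.22% of the 1991 genes low in both. For members these shares were 82.6% and 8.70%, and 81.8% and 9.09%, close to those of all genes with this pattern.

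**Figure D3:**
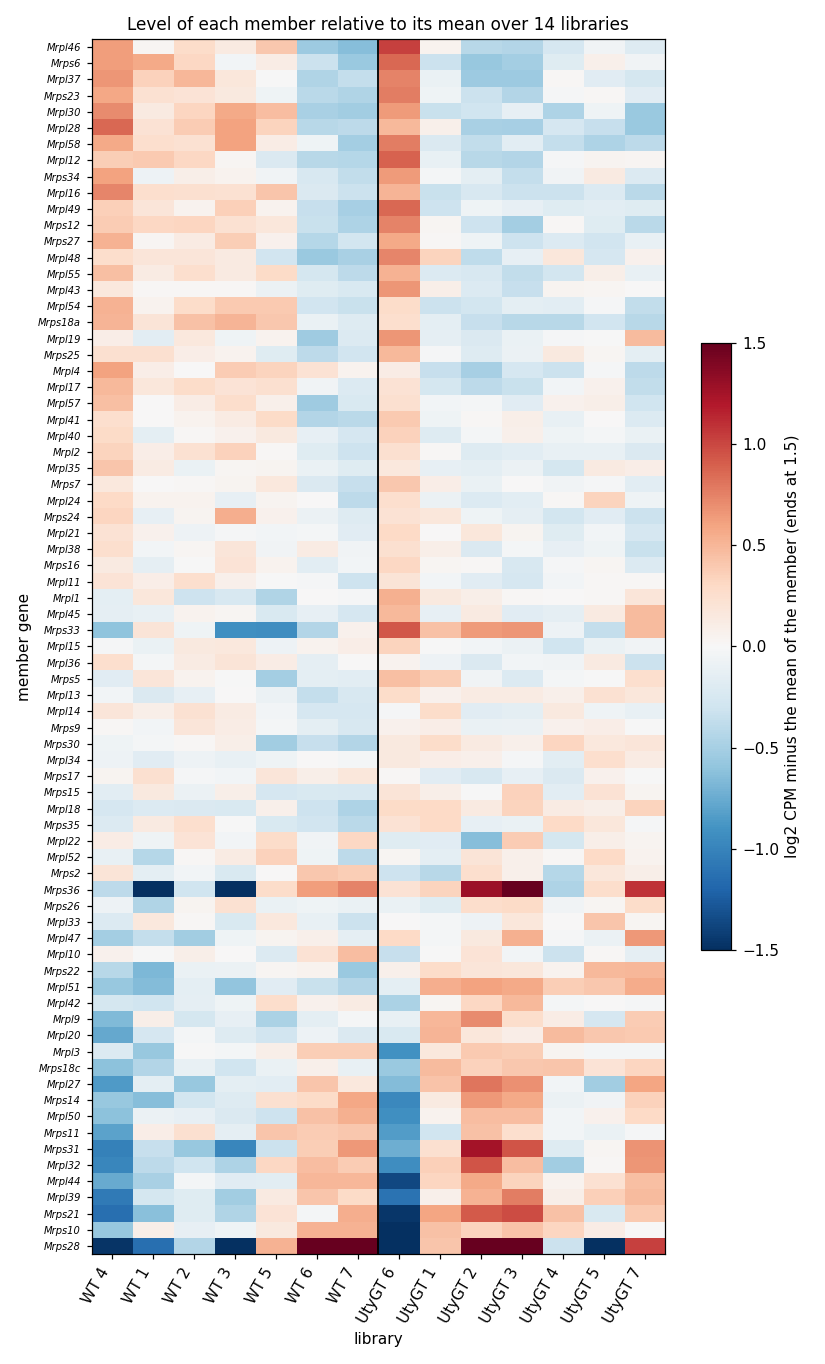
Log2 CPM of each tested member (rows) minus its mean over the 14 libraries (columns, WT left of the line and UtyGT right of it, with WT 4 and UtyGT 6 set first), colored from -1.5 to 1.5 and ordered by the mean of WT 4 and UtyGT 6. Members at the top (Mrpl46, Mrps6) are high in both libraries and members at the bottom (Mrps28, Mrps21) are low in both. The rows between are nearer to their own mean in the average of these libraries, but may vary over the others, as Mrps36 does (0.134 to 4.36 CPM).

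Some other measures moved with these libraries, and others did not. The summed level of 8 cardiomyocyte markers reached 62759 CPM in WT 4 and 77192 CPM in UtyGT 6, each the highest of its genotype (39813 to 62759 CPM in WT and 45180 to 77192 CPM in UtyGT). That of 5 macrophage markers was also highest there, with WT 4 at 541 CPM and UtyGT 6 at 517 CPM (312 to 541 and 269 to 517 CPM). That of 6 pericyte and smooth muscle markers was lowest there, at 991 and 1035 CPM (991 to 1455 and 1035 to 1685 CPM). Other sums were not alike in the pair. Endothelial markers had 634 CPM in WT 4, the highest of WT, but 391 CPM in UtyGT 6 (379 to 528 CPM in UtyGT). Red cell genes had 6320 and 2777 CPM (3192 to 6874 and 1071 to 5117 CPM). Mitochondrially encoded mRNAs had 143774 CPM in WT 4, near the WT median of 143335 CPM, and 115936 CPM in UtyGT 6, the lowest of UtyGT. Over all genes, log2 CPM changed with GC content by 0.31 per 10 points of GC in WT 4 and by 0.13 in UtyGT 6, again the highest of each genotype (means of 0.10 in WT and -0.12 in UtyGT). Members high in both libraries had a median transcript GC content of 52.2% and those low in both of 48.2%. Over all tested genes with these patterns the medians were 53.5% and 47.4%. The part of these measures in the split was not tested.

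GC content moved with the differences between genotypes too. In quartile bins of all tested genes by GC content, from lowest to highest, genes called higher made up 9.97%, 5.61%, 2.46% and 0.762%, and genes called lower 0.900%, 1.66%, 2.98% and 7.79%. Members were spread over the bins (19, 19, 21 and 16), with median log2 fold changes of 0.12, 0.17, -0.05 and -0.13. The members called higher lay in the lower 3 bins (2, 3 and 1), and both called lower lay in the highest. After a correction for GC content per library 3 members were called higher, Mrpl51, Mrpl18 and Mrpl20, and 0 lower (266 and 185 of 11563 tested genes). When the GC content of the final 500 nt was corrected for instead, chosen after seeing the data, Mrpl51, Mrpl20 and Mrpl34 were called higher and 0 lower (of all genes 3.001% and 2.20%). Whether GC content had a part in the differences of single members was not tested otherwise.

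**Figure D4:**
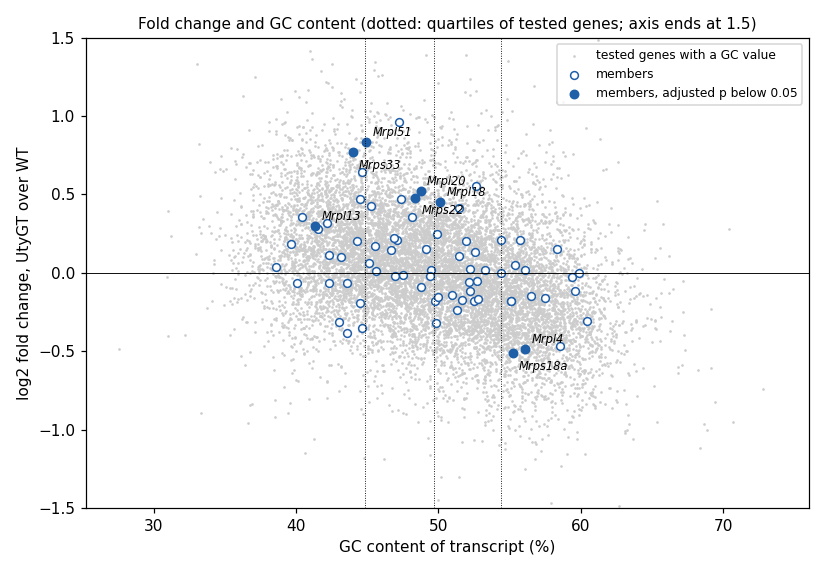
Log2 fold change of UtyGT over WT (y axis, limited to -1.5 to 1.5) against GC content of the transcript in percent (x axis) for tested genes (gray) and members (blue, filled where the adjusted p was below 0.05), with dotted lines at the quartiles of GC content. The 6 members called higher lie in the lower 3 bins and the 2 called lower in the highest.

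Markers of other cell types were read from fixed lists in the same fit, in which 4.70% of all tested genes were called higher and 3.34% lower. Of 5 red cell genes 2 were called lower and 0 higher (3 and 0 by DESeq2), with summed levels of 3192 to 6874 CPM in WT and 1071 to 5117 CPM in UtyGT, and of 5 endothelial genes 2 were called lower and 0 higher, with 459 to 634 CPM and 379 to 528 CPM. Of 8 cardiomyocyte genes 1 (Ryr2) was called higher. Among 5 fibroblast, 5 macrophage, 6 pericyte and smooth muscle and 4 atrial genes 0 were called by edgeR, DESeq2 or voom, with an unadjusted p below 0.05 in edgeR for 1, 2, 2 and 0 of them. Of 4 lymphocyte and 3 adipocyte genes 1 each had enough counts for edgeR, and 0 were called by any of the 3 tools or had an unadjusted p below 0.05 in edgeR. No listed marker was at 0 counts over the 14 libraries. The part of cell composition in the differences of members was not tested.

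Genes that act with the mitochondrial ribosome were read from 5 further lists, chosen with earlier results of these data known. Of all tested genes edgeR called 4.70% higher and 3.34% lower, and 12.5% and 12.3% had an unadjusted p below 0.05. Differences of the lists from these shares were not tested. The 5 mitochondrial ribosomal proteins with other names had 0 calls by edgeR and voom (median log2 fold change 0.07), while DESeq2 called 1 higher and 1 lower. These, the only ones with an unadjusted p below 0.05, were Aurkaip1 (0.35 ± 0.11, adjusted p = 0.0568) and Chchd1 (-0.33 ± 0.11, 0.0674), both of the small subunit, while Gadd45gip1 of the large subunit was at 0.12 ± 0.12 (0.547), and at 0.30 (0.0724) after 3′ GC correction. Without UtyGT 6 edgeR called Aurkaip1 (0.0110) and Chchd1 (0.0381), the latter also without UtyGT 5 (0.0288). Of 16 translation factors and their partners 4 were called higher and 0 lower (median 0.14), and at an unadjusted p below 0.05 5 were higher and 1 lower. DESeq2 called all of these, the lower 1 being Tufm, the mitochondrial elongation factor Tu (-0.76 ± 0.24, edgeR adjusted p = 0.0587), named after its values were seen. By edgeR it was called without WT 1, WT 6, WT 7 or UtyGT 6 (0.0110 to 0.0453). Slirp, which binds and stabilizes mitochondrial mRNAs together with Lrpprc, rose from 125 ± 11.7 to 196 ± 28.1 CPM with no overlap between genotypes (0.65 ± 0.11, edgeR adjusted p = 0.00366). Mtif2, the mitochondrial initiation factor 2, rose from 30.1 ± 7.51 to 51.8 ± 6.93 CPM (0.78 ± 0.15, adjusted p = 0.00670). Both were called under all 26 alternatives. 2810006K23Rik rose from 7.88 ± 0.986 to 11.7 ± 0.951 CPM (0.57 ± 0.13, 0.0138), and Guf1, a GTPase of mitochondrial elongation named after its values were seen, from 13.4 ± 1.601 to 19.5 ± 4.43 CPM (0.54 ± 0.15, 0.0352). The call of Guf1 was lost after GC correction (0.36, edgeR adjusted p = 0.154) and without any one of WT 1 to WT 4, UtyGT 2 to UtyGT 5 or UtyGT 7 (0.0512 to 0.0857).

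Factors that assemble the ribosome went both ways. Of 25 tested, 1 was called higher and 5 lower (median log2 fold change -0.06), where 4.70% and 3.34% of all tested genes were. The difference from these shares was not tested. Malsu1, which keeps immature large subunits from joining small ones, rose from 79.5 ± 16.5 to 116 ± 16.0 CPM (0.54 ± 0.14, edgeR adjusted p = 0.0276, and 0.204 after GC correction). Mpv17l2, an inner membrane protein needed for assembly, fell from 14.2 ± 4.33 to 7.83 ± 2.27 CPM (-0.85 ± 0.21, adjusted p = 0.0252, and 0.0811 after GC correction). Mettl15, which methylates the rRNA of the small subunit, fell from 18.4 ± 1.62 to 13.4 ± 1.90 CPM (-0.46 ± 0.12, 0.0297). The other genes called lower, named after their values were seen, were Mtg2 (-0.59 ± 0.17, 0.0411), Rcc1l (-0.59 ± 0.16, 0.0326) and Rpusd3 (-0.59 ± 0.17, 0.0411). Each of these calls rested in part on single libraries. The call of Malsu1 was lost without WT 3, WT 4 or UtyGT 4 (edgeR adjusted p 0.0537 to 0.0569), that of Mettl15 without WT 4, UtyGT 1, UtyGT 3, UtyGT 4 or UtyGT 7 (0.0504 to 0.0679), and that of Mpv17l2 without any one of WT 3 to WT 5, UtyGT 1 to UtyGT 4 or UtyGT 7 (at most 0.0615). Without any one of WT 1 to WT 5, UtyGT 1 to UtyGT 4 or UtyGT 7, the call of Mtg2 was lost (0.0563 to 0.0909). The same held for Rcc1l without any one of these except WT 5 (0.0507 to 0.0768) and for Rpusd3 without any one of them except WT 1 (0.0608 to 0.0878). After GC correction these 3 had adjusted p values of 0.0676, 0.0934 and 0.161, Rcc1l being at -0.39 and Rpusd3 at -0.37, and Mtg2 was at -0.30 after 3′ GC correction.

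Of 20 mitochondrial aminoacyl-tRNA synthetases and related enzymes 0 were called by edgeR, DESeq2 or voom (median log2 fold change -0.12), with 2 lower and 0 higher at an unadjusted p below 0.05. The smallest adjusted p values were those of Lars2 (-0.52 ± 0.19, 0.0963), Mars2 (-0.37 ± 0.16, 0.161) and Fars2 (-0.42 ± 0.22, 0.243), the enzymes for leucine, methionine and phenylalanine. Single libraries decided this as well. Without UtyGT 6 Fars2 (-0.66, edgeR adjusted p = 0.0141) and Lars2 (-0.61, 0.0320) were called lower, and Lars2 also without WT 7 (0.0388), while Mars2 was called only after 3′ GC correction (0.0483) and with surrogate variables (0.0432). Of 9 tested genes of mitochondrial DNA transcription and maintenance 1 was called higher and 0 lower (median 0.18), where 4.70% and 3.34% of all tested genes were. This was Ssbp1, which binds single-stranded mitochondrial DNA and rose from 9.52 ± 4.76 to 25.4 ± 13.8 CPM (1.41 ± 0.36, edgeR adjusted p = 0.0279). Its call was lost without WT 3, WT 4, WT 5, UtyGT 2, UtyGT 3 or UtyGT 7 (0.0567 to 0.0648). Tfb2m, a factor of the mitochondrial RNA polymerase, was at 0.60 ± 0.23 (0.107) and Twnk, the mitochondrial DNA helicase, at -0.33 ± 0.15 (0.180). Without UtyGT 6 both were called, at 0.66 (0.0429) and -0.47 (0.0198), and Tfb2m also without WT 7 (0.0438). Of the mRNAs that the mitochondrial ribosome translates, 8 of 13 were tested and 0 were called by edgeR, DESeq2 or voom (median -0.09, with 0 in edgeR at an unadjusted p below 0.05). Their summed level ran from 111028 to 163752 CPM in WT and from 115936 to 160841 CPM in UtyGT, and the genotypes overlapped.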

How the data were processed

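QuantSeq 3′ FWD libraries of 14 left ventricles, 7 WT and 7 UtyGT, were analysed. Reads were aligned by the authors to GRCm38/mm10 with Bluebee, and featureCounts 1.6.0 on Ensembl annotation is given as the source of the deposited counts. CASAVA 1.4, FastQC and STAR are further tools in the processing notes of the submitters. Reads without a gene, in 5 entries written as another counter writes them, made up 45.9% to 49.1% and were left out. The strand setting is not given in the sources used here, and no molecular identifiers are named. Deposited columns of the authors' comparison (mean, log2 fold change and its error, statistic, p-values, from DESeq2 1.22.2) were not used. Columns name a genotype and a number but no animal, so libraries carry the number of their column.

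Counts as deposited were tested in R 4.3.3 by edgeR 4.0.16 (glmQLFit with robust estimation, TMM scaling, filterByExpr at a minimum count of 10), with no term but genotype, and p-values were adjusted by Benjamini-Hochberg over 11563 genes. Standard errors were derived from the log2 fold change and the F statistic of that fit, and 95% intervals from these errors with the t distribution. Genes named were Uty, called members, the 3 most and 3 least abundant tested members, the 3 largest fold changes and up to 3 genes with the smallest adjusted p per list, others being marked as named after their values were seen. Members and lists were chosen with earlier results of these data known. Alternatives were DESeq2 1.42.0, RLE scaling, library totals alone, no filter, a filter at 1 CPM in 7 libraries, counts thinned to 6322161, lowess corrections for GC content and length (span 0.3, 3 iterations, prior count 2), voom of limma 3.58.1, surrogate variables of sva 3.50.0 (1 found), each library left out, WT 4 and UtyGT 6 left out, and, added after seeing the data, GC content of the last 500 nt. GC content and length came from GENCODE M21 on GRCm38, matched by identifier for 99.1% of genes and all 75 tested members.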

Additional observations from a re-analysis of the deposited data

Results flagged for a closer look

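For 12 named members and for the summed level of all members, 1 library stood far from the other 6 of its genotype by the gap to its nearest neighbor. About 1 in 20 groups of 7 would be picked by chance, but only among genes chosen without regard to their values. The 12 members were named from values in these same libraries. Mrpl51, Mrpl20 and Mrps18a were called, and Mrpl12, Mrps23, Mrpl37 and Mrps10 had the highest or lowest means. Mrps6, Mrpl46, Mrpl3, Mrpl44 and Mrps18c were named after their values were seen. This rate therefore does not apply to any of them. The members also share the same libraries, so these cases are not independent of each other. UtyGT 6 was the library in question in all but 1 case. It was the highest UtyGT library for Mrpl12 (799 CPM), Mrps23 (468 CPM), Mrpl37 (451 CPM), Mrps6 (385 CPM), Mrpl46 (116 CPM), Mrps18a (54.2 CPM) and the summed level (7495 CPM). It was the lowest for Mrpl51 (136 CPM), Mrpl3 (30.7 CPM), Mrpl44 (22.2 CPM), Mrps18c (21.4 CPM) and Mrps10 (1.999 CPM). In WT, WT 4 was the lowest library for Mrpl20 (49.6 CPM).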

How the results depend on the processing

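The median log2 fold change of members kept within the spread between libraries under every alternative (-0.04 to 0.04 with 1 library left out, its sign turning without UtyGT 6). Counts of calls did not. With 1 library left out, 2 to 9 members were called higher and 0 to 8 lower, against 6 and 2 in the full set. Of all genes 2.36% to 7.87% were then called higher and 1.25% to 11.4% lower, against 4.70% and 3.34% in the full set. Thinned counts gave 3 higher and the GC and 3′ GC corrections gave 3 higher and 0 lower each, while the length correction gave 1 lower. Surrogate variables gave 11 higher and 5 lower, and leaving out WT 4 and UtyGT 6 gave 4 lower. The cause was not tested. Over all genes the calls went from 543 higher and 386 lower to 266 and 185 after GC correction and to 1255 and 1245 with surrogate variables. They stood at 435 and 297 (3.76% and 2.57%) after length correction and at 347 and 254 after 3′ GC correction. Without WT 4 and UtyGT 6 they were 796 and 834, and with thinned counts 512 and 358 of 11163 genes.

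Signs turned under at least 1 alternative for 28 of 75 tested members, of size up to 0.31. The 6 of these that are named are given here. Mrpl12 went to -0.0111 with voom and -0.12 without WT 4 and UtyGT 6 (-0.20 to 0.0855 with 1 library left out). Mrps23 went to 0.00104 with library totals alone, 0.00115 with length correction, 0.0844 with 3′ GC correction and 0.0542 with surrogate variables (-0.25 to 0.0332). Mrps28 went to -0.33 with surrogate variables (-0.24 to 0.69). Mrps10 went to 0.0193 with library totals alone and 0.0777 without WT 4 and UtyGT 6 (-0.12 to 0.15). Mrpl46 went to 0.000908 with library totals alone, 0.00860 with GC correction and 0.0673 with surrogate variables (-0.32 to 0.0422). Mrpl3 went to -0.00201 with DESeq2, -0.000575 with RLE scaling, -0.12 with GC correction and surrogate variables, -0.00293 with length correction, -0.0868 with 3′ GC correction and -0.00807 with voom (-0.0853 to 0.107). None of the 6 was called in any fit. No paired analysis was possible because no label pairs animals across genotypes. Library numbers recur in both genotypes, but equal numbers are not said to mark a pair. Depth limits Mrps36, Mrps28, Mrps10 and Mrps33, which lie near or below 10 CPM, and the 3 members that were not tested. Reads may be copies of 1 molecule, and p-values rest on 1 library per animal.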
